A study of Mus musculus with 8 samples.

Results

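Iron uptake, storage and recycling was followed through 8 genes: Tfrc, Trf, Fth1, Slc40a1, Slc11a2, Ireb2, Aco1 and Hmox1. Every probe set annotated to one of these symbols was taken, which gave 20 probe sets of the 45101 on the array; 18193 genes had a probe set annotated to them alone, and 7 of the 8 are among these. The genes were chosen by their role in iron handling and with the differences between the E2 and vehicle arrays already known, so the members' values against vehicle are given as a description, without a test. Tfrc had 6 probe sets, 3 of them the control probe sets that Affymetrix places along the transcript. Slc11a2 had 4, Aco1 had 3, Fth1 and Slc40a1 had 2 each, and Ireb2 and Hmox1 had 1 each. Trf had 1, which is annotated to Trf and Srprb together and cannot be assigned to either gene.

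The tissue was the inguinal mammary gland of virgin mice, 12 to 13 weeks old, whose gonads had been removed (GDX), a surgery that all groups share and that takes away the main source of estrogen. E2, or 17β-estradiol, is the main circulating estrogen. The vehicle group (GDX + vehicle) had 2 arrays, both titled 24 h. The E2 groups (GDX + E2) had 1 array per time, taken 1 h, 3 h, 6 h, 12 h, 18 h or 24 h after a subcutaneous injection by their titles; the description of every sample gives 24 h. The unit of the dose is contradictory in the labels, so no dose is given. Tissue from all mice of a group was collected; neither their number nor any pooling on an array is stated. No vehicle array has the times from 1 to 18 h, where E2, the injection itself and the time of day cannot be told apart. The 1, 3 and 6 h arrays are called the early window below and the 12, 18 and 24 h arrays the late window.

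Cells take up iron bound to transferrin, the serum carrier encoded by Trf, through the transferrin receptor Tfrc, and the metal leaves the endosome through the transporter Slc11a2 (DMT1). Iron that is not used is stored in ferritin, whose heavy chain is Fth1, or leaves the cell through the exporter ferroportin (Slc40a1). The iron regulatory proteins Aco1 (IRP1) and Ireb2 (IRP2) bind hairpins in such transcripts when iron is scarce: they stabilise the Tfrc transcript and block translation of ferritin, a step that transcript levels do not show. Hmox1 (heme oxygenase) frees iron from heme and is prominent in macrophages.

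All values are log2 intensities of normalized arrays, and differences are log2 differences from the mean of both vehicle arrays unless a fold is named. Array medians lay between 173.9 and 180.49 intensity units, and the difference between both vehicle arrays had an SD of 0.138 across the 27022 probe sets at or above the 40th percentile of mean level, called the tested probe sets. Of the members' 20 probe sets, 15 reached that level. Of the fat and epithelial markers, 12 of 12 measured adipocyte genes and 15 of 15 measured luminal epithelial genes reached it. So did 13281 of all 18193 genes, so this level alone does not set these tissues apart. Skeletal muscle markers (21 tested of 22 measured) were higher than vehicle by a mean of 0.73, 0.59, 1.31, 0.22, 0.74 and 1.02 at the 6 times in order, and their summed intensity ran from 13800 to 18237 in vehicle, 25218 to 38189 in the early window and 18783 to 30996 in the late window. In limma, 1 probe set of 27022 (0.0037%), for Krt10, a keratin, passed an adjusted p below 0.05 in the early window and 0 (0.0%) in the late window, with 1420 and 2080 at an unadjusted p below 0.05. Without the 1 h array the early count was 130, without 3 h 5, without 6 h 23, without 18 h 2, and without either vehicle array 0. In this fit, change between the times of a window adds to the spread, so a low count does not show that little changed.

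Tfrc was the member farthest from vehicle. The sequence before its start site is shown because its transcript gave the widest time course. RefSeq promoter windows (GRCm38.p6, 250 bases before to 50 after a start site) matched 4 of the 8 members, with 6 windows for Tfrc, Fth1, Ireb2 and Aco1. The first run below is the 250 bases before the upstream Tfrc start site, chr16:32608646-32608895 on the plus strand. Capitals mark GGTCA, the core that each arm of an estrogen response element carries. The second run is the 30 bases around that start site, chr16:32608881-32608910 on the plus strand, with capitals on ACGTG, the core of the hypoxia response element.
Tfrc upstream: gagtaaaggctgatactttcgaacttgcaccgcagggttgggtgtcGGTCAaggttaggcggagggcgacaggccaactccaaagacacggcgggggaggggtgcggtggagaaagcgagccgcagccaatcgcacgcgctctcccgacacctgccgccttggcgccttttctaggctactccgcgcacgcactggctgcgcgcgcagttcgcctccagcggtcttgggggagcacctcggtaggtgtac
Tfrc start: cctcggtaggtgtACGTGcggaaggaagtg

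Both motifs were searched on both strands. GGTCA was in 1 of the Tfrc windows. ACGTG was in 2 of 2, but these windows overlap and both matches are the same 1 site. The Fth1, Ireb2 and Aco1 windows held neither motif. Of all 32851 promoter windows, 40.5% held GGTCA and 19.6% held ACGTG, so a match is common. The full palindrome GGTCANNNTGACC, which includes GGTCA, was in 0.07% of all windows and in 0 of the members' 6. These are matches of letters and say nothing about binding.

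Uptake. The receptor transcript Tfrc was higher than vehicle at 1, 3 and 6 h after E2 and lower at 12, 18 and 24 h. Its brightest probe set, 1452661_at, read 9.85 and 9.90 on the vehicle arrays. It read 10.32, 10.51 and 10.20 on the early arrays in order of time, then 9.68, 9.48 and 9.47 on the late ones. All 3 early arrays lay above both vehicle arrays and all 3 late arrays below both, while the vehicle arrays themselves were 0.05 apart.

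In folds of the vehicle mean, 1452661_at stood at 1.35, 1.54 and 1.25 on the early arrays and then at 0.87, 0.758 and 0.751 at 12, 18 and 24 h. The early window averaged 0.46 above vehicle, at 10.34 ± 0.153 (SD, n = 3). The late window averaged -0.34, at 9.54 ± 0.119 (SD, n = 3), against 9.88 ± 0.0353 (SD, n = 2) in vehicle. Among the 27022 tested probe sets its difference ranked 135th highest at 1 h, 132nd at 3 h and 452nd at 6 h. It ranked 1011th lowest at 12 h, 206th at 18 h and 265th at 24 h.

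A second Tfrc probe set, 1422966_a_at, followed the same course at smaller size. It read 8.32 and 8.25 in vehicle, 8.61, 8.69 and 8.56 at 1, 3 and 6 h, and 8.20, 8.07 and 8.19 at 12, 18 and 24 h. Its early mean was 0.33 above vehicle and its late mean -0.13, again with no overlap of either window with vehicle. The remaining standard probe set, 1422967_a_at, lies below the level filter and read 6.42 and 6.32 in vehicle and 6.65 at 3 h, its highest array, with 6.43 at 1 h and 6.42 at 6 h. On the late arrays it read 6.23, 6.30 and 6.34, so that only 24 h fell within the vehicle pair.

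The 3 control probe sets read the 3′ end, the middle and the 5′ end of the Tfrc transcript and are all dim. The 3′ one read 6.54 and 6.57 in vehicle, 6.76, 6.86 and 6.71 in the early window and 6.41, 6.48 and 6.48 in the late window, without overlap. The middle one was at 5.17 and 5.15 in vehicle, 5.33 at 3 h and between 5.06 and 5.20 on the other E2 arrays. The 5′ one was at 4.81 and 4.85 in vehicle, 4.999 at 3 h, 4.994 at 6 h and between 4.84 and 4.90 on the rest. At 3 h, 6 of 6 Tfrc probe sets lay above both vehicle arrays, by 0.17 to 0.63 from the vehicle mean, and at 1 h 5 of 6 did. These probe sets read the same transcript on the same array at each time, so they are not replicates. The share of all probe sets above both vehicle arrays at 1 or 3 h was not counted. The late position below vehicle was not seen at the 5′ end, where 12 h lay between the vehicle arrays and 18 and 24 h above both. Over the 8 arrays, which all Tfrc probe sets share, the other 5 correlated with 1452661_at at Pearson r from 0.59 (the 5′ control) to 0.97 (1422966_a_at).

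**Figure D1:**
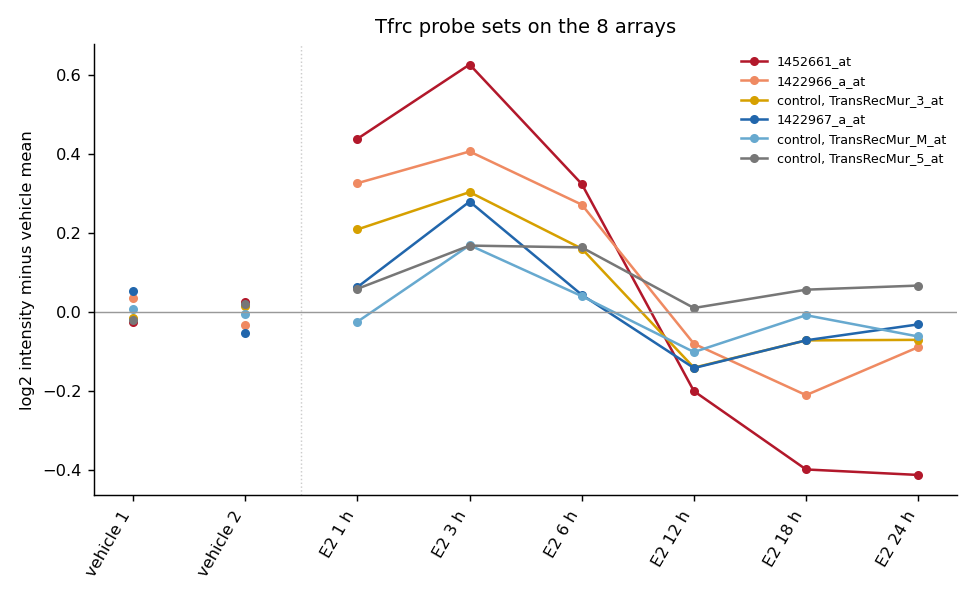
Log2 intensity minus the vehicle mean (vertical axis) for the 6 Tfrc probe sets on each of the 8 arrays (horizontal axis, evenly spaced times), 1 point per array, with lines joining the E2 arrays. The 1452661_at line peaks at 0.63 at 3 h and ends at -0.41 at 24 h, and the dim control probe sets move less.

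Counted over all members, 5 of 20 probe sets lay above both vehicle arrays on every early array, 4 of them for Tfrc, against 11.7% of the tested probe sets. On every late array 5 of 20 lay below both, again 4 for Tfrc, against 13.2%. Both together held for 3 of 20, all Tfrc, against 0.833%. These percentages are over tested probe sets, and on that basis the member counts were 2 of 15 early, 3 of 15 late and 2 of 15 for both. At a fold of at least 1.5 from both vehicle arrays, 1 of 20 was higher at 3 h, Tfrc 1452661_at, against 0.414%. Over all 6 times the same 1 probe set was higher at any time, against 0.792%, and 0 of 20 were lower at any time, against 0.385%. Tfrc was chosen with these differences known, so nothing is read from its share. The 1.5-fold count was 0 when each array was centred on its median: the 3 h difference of 1452661_at from the vehicle mean was then 0.63, as without centring, and that from the nearer vehicle array went from 0.60 to 0.58, just under the threshold.

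Markers that could carry Tfrc were read on the same arrays, in bulk tissue where fewer cells of a type and less RNA per cell cannot be told apart. Lymphocyte markers (16 tested of 16 measured) averaged 0.08, 0.09 and -0.10 at 1, 3 and 6 h, 0.09 at 12 h, and -0.38 and -0.35 at 18 and 24 h. At 18 and at 24 h 15 of 16 lay below both vehicle arrays. Of all genes 41.2% did so at 24 h, and the share at 18 h was not counted, so nothing is read from the 18 h count. Vehicle 1 minus vehicle 2 averaged -0.24 over these markers. The summed intensity of the lymphocyte markers was 19057 to 22430 in vehicle, 19545 to 22039 in the early window and 16027 to 22705 in the late window. Erythroid markers (7 tested of 10 measured) averaged 0.01, 0.09 and 0.10 in the early window and 0.02, 0.07 and 0.07 in the late window, with sums of 1570 to 1571, 1574 to 1692 and 1583 to 1643. The alpha globin genes Hba-a1 and Hba-a2 were not among the 7 tested, and 16 erythroid genes had been listed. Only probe sets annotated to 1 gene were used, so any probe set shared by several globin genes was left out. Red cell content is therefore not read from this list. Cell cycle genes (18 tested of 20 measured), listed because dividing cells need iron, averaged 0.09, 0.06 and 0.06 and then -0.02, -0.03 and -0.05. Genes of the hypoxia response (17 tested of 19 measured) averaged between -0.02 and 0.07 at the 6 times. The part of any of these, or of the muscle markers above, in the Tfrc values was not tested.

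Slc11a2, which moves iron out of the endosome, stayed close to vehicle in 4 of 4 probe sets. Its brightest, 1452078_a_at, read 9.04 and 9.08 in vehicle, 9.11, 9.05 and 9.26 at 1, 3 and 6 h, and 8.956, 8.984 and 8.999 at 12, 18 and 24 h. The 6 h array stood highest, at 0.20 above the vehicle mean, and all late arrays lay slightly below both vehicle arrays. The other 3 probe sets did not show this late position: 1417584_at spanned 8.41 to 8.51 over the 8 arrays, 1426441_at 7.33 to 7.55 and the dim 1441709_at 5.31 to 5.46. The vehicle arrays of 1426441_at were 0.22 apart and enclosed all E2 arrays.

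The probe set shared by Trf, the iron carrier of serum and milk, and Srprb, a subunit of the signal recognition particle receptor, was among the brightest, at the 99.6th percentile of mean level. It read 12.97 and 13.03 in vehicle, 13.06, 13.00 and 13.02 in the early window and 13.13, 13.06 and 12.94 in the late window. The whole range was 0.19, with 12 h highest and 24 h lowest.

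Storage and export. The ferritin heavy chain transcript Fth1 was near the top of the array and varied little. Probe set 1427021_s_at, whose suffix marks possible matches to related transcripts, read 13.92 and 13.97 in vehicle and 13.96, 13.97, 14.06, 14.01, 13.99 and 13.97 at the 6 times. Probe set 1448771_a_at read 13.09 and 13.17 in vehicle and 13.17, 13.07, 13.19, 13.13, 13.17 and 13.10. The largest difference of either from the vehicle mean was 0.11, at 6 h, and the range over all arrays was 0.14 and 0.12.

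The exporter Slc40a1 was read by 2 probe sets whose vehicle arrays were 0.16 and 0.20 apart. In 1417061_at the vehicle arrays were at 9.43 and 9.26, the early arrays at 9.22, 9.42 and 9.45 and the late arrays at 9.24, 9.28 and 9.26. In 1448566_at the vehicle arrays were at 8.95 and 8.75, the early arrays at 8.64, 8.79 and 8.90 and the late arrays at 8.69, 8.75 and 8.83. Both were lowest at 1 h, at -0.13 and -0.20 from the vehicle mean, and below both vehicle arrays also at 12 h. These differences are of the size of the gap between the vehicle arrays.

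Regulators. Aco1, the cytosolic aconitase that becomes IRP1 when it loses its iron-sulfur cluster, was lower at 3 and 6 h in its 2 bright probe sets. In 1423644_at vehicle read 10.94 and 10.93, the 1 h array 10.95, the 3 h array 10.78 and the 6 h array 10.68, and the late arrays read 11.02, 11.02 and 10.88. In 1456728_x_at vehicle read 11.92 and 11.99, the 1 h array 11.97, the 3 h array 11.77 and the 6 h array 11.58, and the late arrays read 11.98, 12.02 and 11.88. The 6 h arrays stood at -0.26 and -0.38 from the vehicle mean and ranked 896th and 294th lowest of 27022. The suffix of 1456728_x_at also marks possible cross-hybridisation. The third, 1447080_at, at the 42.6th percentile, read 7.18 and 7.01 in vehicle and between 6.94 and 7.29 on the E2 arrays, with 6 h at 7.20 above both vehicle arrays.

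Ireb2, encoding IRP2, had 1 probe set, which read 9.11 and 9.20 in vehicle, 9.20, 9.33 and 9.05 on the early arrays, then 9.17, 9.11 and 9.11. The 3 h array was 0.18 above the vehicle mean and the 6 h array -0.10 from it. Neither Aco1 nor Ireb2 reached 1.5-fold from both vehicle arrays at any time.

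Heme recycling. Hmox1 was highest on the 6 h array, although its vehicle arrays were far apart. They read 10.07 and 9.82, a gap of 0.26, against 9.98, 10.18 and 10.43 on the early arrays in order of time and 9.98, 9.85 and 9.95 on the late ones. The 3 and 6 h arrays lay above both vehicle arrays, by 0.24 and 0.48 from their mean, and the other 4 E2 arrays lay between them. At 6 h it ranked 204th highest of 27022, and against vehicle 2 alone, without vehicle 1, it passed 1.5-fold there. Macrophage markers (15 tested of 16 measured) averaged 0.01, -0.03 and 0.15 at 1, 3 and 6 h and -0.13, -0.11 and -0.05 in the late window. At 6 h 13 of 15 lay above both vehicle arrays, and at 12 h 12 of 15 below both. The share of all genes in these positions was not counted, so nothing is read from these counts. The macrophage marker sums were 56215 to 57021 in vehicle, 55170 to 62145 early and 51430 to 55525 late. Genes of the oxidative stress factor NRF2 (11 tested of 12 measured), which can drive Hmox1, averaged -0.02, -0.09 and 0.05 in the early window. The part of macrophage or muscle markers in the 6 h Hmox1 and Aco1 values was not tested.

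**Figure D2:**
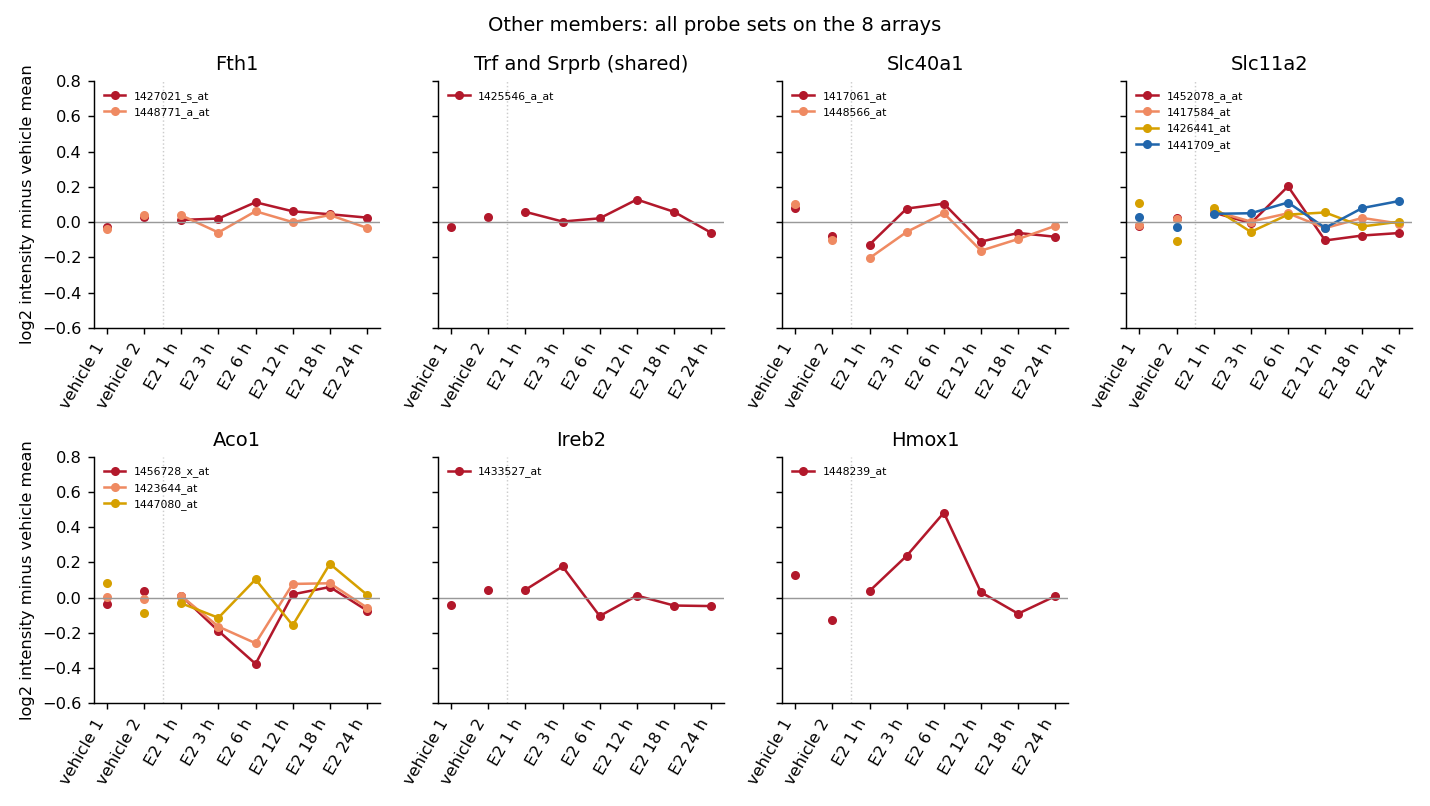
Log2 intensity minus the vehicle mean (vertical axis, the same in each panel) for all 14 probe sets of the other members on the 8 arrays (horizontal axis), 1 point per array. Hmox1 reaches 0.48 and Aco1 1456728_x_at -0.38 at 6 h, while Fth1 and the shared Trf and Srprb probe set stay within 0.13 of the vehicle mean.

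Other iron genes were taken from 5 lists that hold none of the members, 106 genes in all, of which 94 had a probe set of their own and 87 reached the level filter, each gene by its brightest probe set. In limma with windows, 0 of 87 passed an adjusted p below 0.05 early and 0 late. The window fit counts change between the times of a window as spread. In the limma fit of single times, which has 1 residual degree of freedom and takes each lone array to vary as the vehicle arrays do, 1 of 87 passed at 3 h and 1 of 87 at 6 h, both higher than vehicle, and 0 passed at 1, 12, 18 or 24 h. The lists were chosen with earlier results known, and each call sets 1 array against 2, so neither is independent evidence of a change. Over all tested probe sets that fit called 0.0629%, 0.581%, 0.385%, 0.0518%, 0.0111% and 0.0% at the 6 times. At 1.5-fold from both vehicle arrays at any time, 2 of 87 were higher and 0 lower, against 1.11% and 0.346% of 13281 genes. At 3 h 83 of the 87 lay within 0.3 of the vehicle mean and at 6 h 84 did. The share of all genes within 0.3 was not counted, so nothing is read from these 2 counts. The median of the 87 was between -0.01 and 0.04 at every time, and that of all genes between -0.01 and 0.02.

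The gene that passed at 3 h was Alas1, the enzyme that starts heme synthesis. It read 10.11 and 10.19 in vehicle, 10.40, 10.80 and 10.32 at 1, 3 and 6 h and 10.19, 10.19 and 9.98 at 12, 18 and 24 h. The 3 h difference was 0.65 (limma adjusted p = 0.0297), and its other probe set stood at 0.60. The gene that passed at 6 h was Lcn2, lipocalin 2, which binds bacterial iron carriers. It read 9.82 and 10.01 in vehicle, 10.11, 10.23 and 10.69 in the early window and 10.47, 10.37 and 10.12 in the late window, above both vehicle arrays at every time. The 6 h difference was 0.78 (limma adjusted p = 0.0374). Both calls ended without the mean-variance trend (limma adjusted p = 0.058 and 0.0633), and that of Lcn2 also with 1 probe set per gene (limma adjusted p = 0.0566). Over all alternatives the limma adjusted p ran from 0.000185 to 0.058 for Alas1 and from 3.13e-06 to 0.0633 for Lcn2, lowest in both with median centring.

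Among 18 tested uptake and trafficking genes, Steap4, a ferric reductase, stood at -0.38 at 3 h and Scara5, a ferritin receptor, at -0.30 at 6 h. Ltf, lactoferrin, stood at 0.33, 0.45 and 0.42 in the late window. Luminal epithelial markers (15 tested) averaged -0.05, -0.19 and -0.16 in the early window and 0.34, 0.23 and 0.15 in the late window. Their sums were 11878 to 12319 in vehicle, 10570 to 11422 early and 13555 to 15791 late. Single markers went different ways: Pgr averaged 1.45 and Foxa1 -1.49 early, and Krt8 0.94 and Esr1 -0.34 late. The mean thus cannot be read as luminal content, and the part of these markers in the Ltf values was not tested. Of 8 storage and iron chaperone genes 6 lay below both vehicle arrays at 24 h, where 41.2% of genes did, among them Pcbp1, an iron chaperone, at -0.17. Bola2, a partner in iron-sulfur transfer, was at 0.21 at 12 h in its brightest probe set. Its other probe sets stood at 0.12, 0.06, -0.04 and -0.01 at that time. Glrx3 was at 0.17 at 1 h. Herc2, a ubiquitin ligase, was at -0.20 at 24 h in its brightest probe set. The other tested Herc2 probe set stood at 0.22 at 24 h, so no direction is read for this gene. Among 14 export and hormonal control genes Hephl1, a copper ferroxidase, was at -0.45 at 3 h, with vehicle arrays 0.38 apart. In the same list Id1, a target of the bone morphogenetic protein pathway, was at 0.29 at 3 h. Heph, hephaestin, was at 0.28 at 12 h, with vehicle arrays as far apart. Cp, ceruloplasmin, was at -0.24 at 6 h in its brightest probe set. Its other tested probe sets stood at -0.27, -0.22, -0.11, -0.09, -0.09 and -0.03 at that time. The Cp probe set below the level filter stood at 0.13.

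Of 25 tested mitochondrial and iron-sulfur genes, 20 lay above both vehicle arrays at 12 h and 0 below both, where 36.6% of all genes lay above. Their median difference was 0.09 at 12 h and between -0.02 and 0.01 at the other times. Also at 12 h, 10 of 15 luminal markers and 9 of 9 tested myoepithelial markers lay above both vehicle arrays. The myoepithelial rise was not particular to 12 h, with means of 0.20, 0.19, 0.14, 0.20, 0.17 and 0.08 at the 6 times. Their sums were 7678 to 8041 in vehicle, 8535 to 8653 early and 8094 to 8778 late. Brown adipocyte markers (8 tested) averaged 0.25 at 12 h and skeletal muscle markers 0.22, with vehicle arrays 0.35 and 0.42 apart on average. The part of any of these markers in the 12 h values was not tested. Slc25a37, the mitochondrial iron importer mitoferrin 1, was at -0.36 at 18 h, with vehicle arrays 0.25 apart, and its paralog Slc25a28 at 0.28 at 3 h. Nubpl and Bola3, assembly factors, were at 0.20 and 0.19 at 12 h. In the heme list of 22 tested genes Hp, haptoglobin, was at 0.50 at 6 h, Bach1, a heme-binding repressor, at -0.29 at 12 h, and Flvcr2 at -0.26 at 12 h. None of the iron-list genes named in this and the preceding paragraph passed limma at any time or window.

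**Figure D3:**
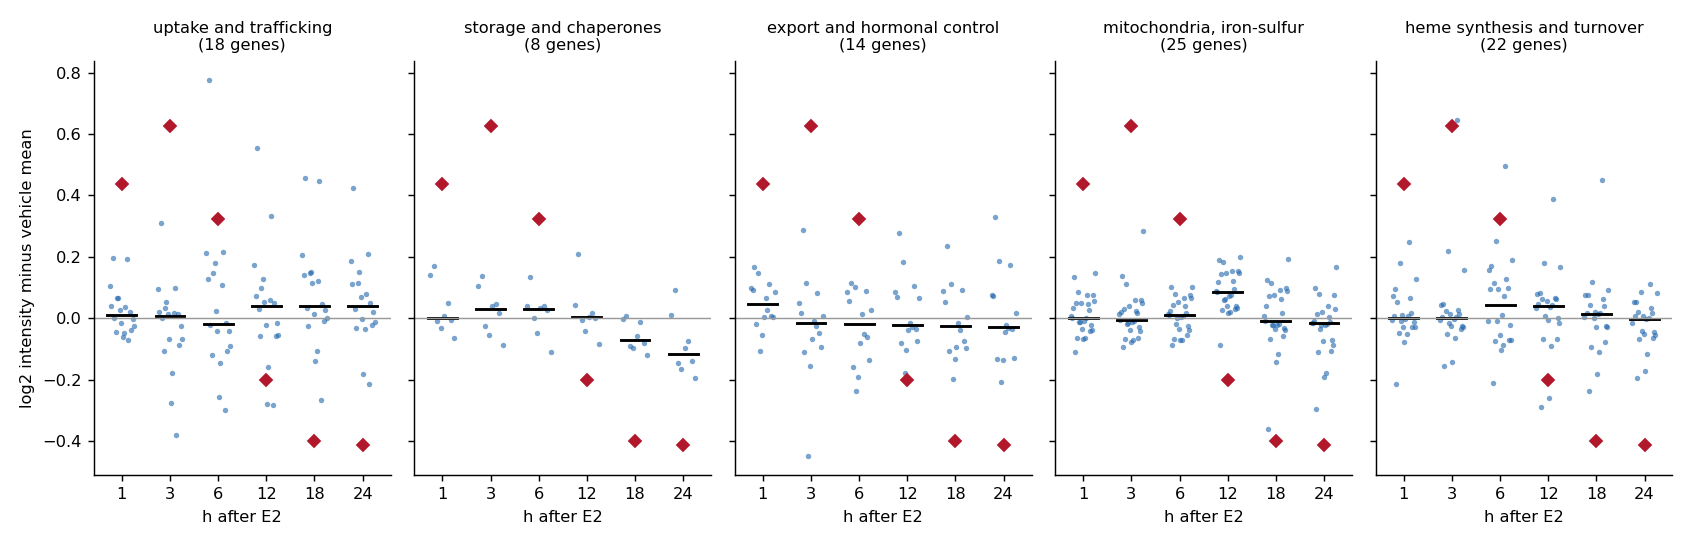
Log2 difference from the vehicle mean (vertical axis) at each time after E2 (horizontal axis, h) for the tested genes of the 5 iron lists, 1 blue point per gene, black bar at the list's median and red diamond at Tfrc 1452661_at for reference. The medians lie between -0.12 and 0.09, and the highest points are Lcn2 at 0.78 (6 h) and Alas1 at 0.65 (3 h).

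The genes whose course over the 8 arrays was most like that of Tfrc 1452661_at were sought among 584 genes that reached the level filter and ranged over at least 0.58. The highest Pearson correlations were those of Fos (r = 0.98), an AP-1 transcription factor subunit, Socs2 (0.98), a feedback inhibitor of cytokine signalling, Phlda1 (0.97), Junb (0.97), another such subunit, and Il17ra (0.96), an interleukin 17 receptor. Fos stood at 0.48, 0.66 and 0.42 in the early window and at -0.17, -0.45 and -0.27 in the late window, and Socs2 at 0.45, 0.68 and 0.40 and then at -0.20, -0.44 and -0.53. Junb stood at 0.49, 0.62 and 0.24 early, and Il17ra was farther from vehicle than Tfrc at 3 h, at 1.08. The lowest correlations were those of Pth1r (-0.97), a parathyroid hormone receptor, Prune2 (-0.96) and Cyp51 (-0.95), a sterol synthesis enzyme, which stood at -0.52 at 3 h and 0.46 at 18 h. These correlations rest on 8 arrays that all genes share and are given without a test.

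**Figure D4:**
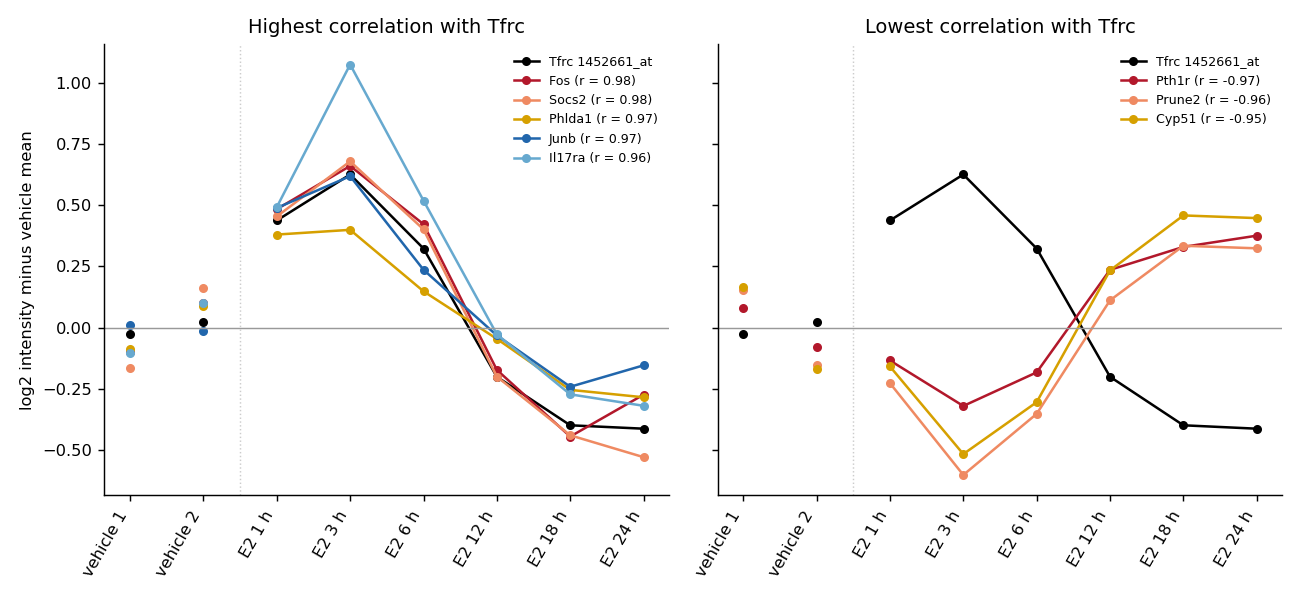
Log2 intensity minus the vehicle mean (vertical axis) on the 8 arrays (horizontal axis) for Tfrc 1452661_at in black, with the 5 genes of highest correlation on the left and the 3 of lowest on the right. All 5 on the left are above the vehicle mean at 1, 3 and 6 h and below it at 12, 18 and 24 h, as Tfrc is.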

How the data were processed

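The authors deposited 1 table of intensity values for 8 one-colour Affymetrix arrays of biotin-labelled cRNA, on a linear scale from 13.8 to 23591. Per the submitters' processing notes, GCOS 1.0 and RMA were used, with no role or order given. Here log2 was taken with no pseudocount and no further normalization. Of 45037 standard probe sets (64 controls apart), 34945 carried 1 symbol, 932 several and 9160 none; 34741 of the 34945 matched RefSeq GRCm38.p6 by Entrez identifier, with 0 symbols updated. Windows (5 residual degrees of freedom) and single times (1) were fitted in limma 3.58.1 (R 4.3.3) with a mean-variance trend, two-sided, with Benjamini-Hochberg adjustment over all 27022 probe sets at or above the 40th percentile of mean level (6.97); the code was tested on simulated data. P-values measure the spread between arrays, which may be technical. In the window fit this spread also holds any change between the times of a window, so a gene that changed at 1 time alone can go uncalled. Members and lists were chosen with earlier results of these data known. From each iron list the text names the 4 genes with the largest difference at any time and those that passed; for Tfrc, the 5 highest and 3 lowest correlations, clone names passed over. The number of arrays limits precision. Log2 ratios of 3′ to 5′ control probe sets were 0.27 to 0.36 for Actb and -0.02 to 0.04 for Gapdh. Alternatives were other normalizations, level filters, thresholds, no trend, 1 probe set per gene, a pseudocount of 16 and leaving out arrays.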

Additional observations from a re-analysis of the deposited data

Results flagged for a closer look

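In 3 Tfrc probe sets every array of the early window lay above both vehicle arrays and every array of the late window below both. The early mean exceeded the late mean by 0.80 (log2) in 1452661_at, 0.46 in 1422966_a_at and 0.32 in the 3′ control probe set. The difference between the windows was not tested, since Tfrc was chosen with these values known, and 0.833% of the tested probe sets showed the same order.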

How the results depend on the processing

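Each window was compared with vehicle by limma over all probe sets. The early count was 1 and ranged from 0 to 130 with 1 array left out, was 2 with no level filter, and a filter raised to the 60th percentile gave 0. The late count stayed 0 in all settings run. The single-time counts, in order 17, 157, 104, 14, 3 and 0, rose to 218, 564, 608, 208, 304 and 539 with arrays centred on their median. These counts rest on 1 residual degree of freedom, and the cause of their change was not tested. With no level filter they were 37, 266, 201, 34, 12 and 16. With 1 probe set per gene they were 8, 79, 44, 5, 0 and 0, over 13281 genes. Without the trend the 6 h count was 63 and the 18 h count 0, and with quantile normalization the 18 h count was 0.

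Of the members, 1 probe set was 1.5-fold from both vehicle arrays at some time. The count was 0 with median centring, 0 at a 2-fold threshold, 2 without vehicle 1 and 1 without vehicle 2. The differences of the 17 standard member probe sets were recomputed 306 times with another normalization or pseudocount. A change of sign was counted only where the difference lay outside both vehicle arrays, so smaller differences between them could change sign uncounted. On that rule 280 moved by less than the SD of the vehicle arrays without a counted change of sign. Another 21 moved by more, 16 of these with quantile normalization and 5 with median centring. The remaining 5 lay outside both vehicle arrays and changed sign, all with quantile normalization and all small: the shared Trf and Srprb probe set (-0.0330), Fth1 1448771_a_at (-0.0485) and Aco1 1423644_at (-0.0352) at 1 h, and Aco1 1423644_at (0.0155) and Ireb2 (1.34e-05) at 24 h. Leaving out a vehicle array cannot move a difference beyond that SD or turn one outside both arrays, so it is not counted here. No paired analysis was possible because each E2 time had 1 array and the vehicle replicate numbers recur in no other group. No background or detection value was used, and 5 of the 20 member probe sets lay below the level filter.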
